A study of Mus musculus with 6 samples.

Results

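Rab GTPases were compared between 2 related lines of mouse breast cancer cells: EO771-tdT-Parental, called Parental below, and EO771-tdT-LM2, called LM2. The members are all protein-coding genes whose symbol is Rab followed by a number and at most 1 letter. By that rule 59 of 21850 protein-coding genes were members, and the rule used no expression value. Of these, 47 had enough reads to be tested between the lines and 12 did not.

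Each line was sampled in 3 RNA-seq libraries from cells grown for 48 h to roughly 75% confluence, in medium of the type RPMI 1640 to which 10% fetal bovine serum was added. EO771 is a mouse mammary tumour line, and the labels give the genotype of both lines as WT and name no treatment. They do not say how LM2 was derived, nor what the tag Ac6 in the Parental titles means. Nothing says that the 3 libraries of a line are separate cultures. The p-values therefore cover only the spread among these libraries, and it may be technical.

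Rab proteins are small GTPases that mark the membranes of the cell and steer vesicle traffic between them. In the GTP-bound state each Rab recruits effectors such as motors and tethers to its own membrane. Exchange factors switch it on, and GTPase activating proteins, most of them with a TBC domain, switch it off. In tumour cells Rab proteins are studied for the recycling of adhesion receptors and the secretion of proteases and extracellular vesicles. RNA levels, measured here, do not show how much of a Rab protein is in its active state.

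The libraries held 33922699 to 45849019 estimated counts. Their log2 CPM (counts scaled to the normalized library size) correlated at 0.991 to 0.994 within a line and at 0.962 to 0.964 between lines, across genes, which are not independent replicates. Of 6 mammary epithelial markers, the CPM of Krt8 averaged 419.7 in Parental and 568 in LM2, and that of Krt14 averaged 1.11 and 8.47. Epcam was at 0.154 and 14.97 CPM, and Cdh1, Krt18 and Krt5 were near 0 in both lines. The summed level of 7 leukocyte markers was 4.42 to 4.66 CPM in Parental and 3.47 to 4.06 CPM in LM2. The medians of some chromosomes were shifted between the lines. The median tested gene of chromosome 4 was 0.39 higher in LM2 on the log2 scale. The medians of chromosomes 8 and 10 were -0.31 and -0.33. Smaller shifts were seen on chromosomes 6 and 12, with medians of -0.18 and -0.19. Positions along a chromosome were not examined, so a median does not show whether all or part of a chromosome was shifted. Nor does it show whether a given Rab gene lies in a shifted part. Minus these medians the log2 fold changes were 0.29 for Rab7 and 0.83 for Rab43 on chromosome 6, and 0.22 for Rab10 on chromosome 12. The part of these shifts in the results for Rab genes on those chromosomes was not tested, and the value minus the chromosome median is given for most of them.

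Of the 47 tested Rab genes, 21 rose in LM2, 11 fell and 15 did not pass edgeR's quasi-likelihood test at a Benjamini-Hochberg adjusted p below 0.05. Most changes were small. Over all tested genes 62.4% were called, 31.4% higher and 31.1% lower, so the 68.1% called among Rab genes is near the background. The libraries of the lines did not overlap for 34 of the tested Rab genes, against 67% of all tested genes. The median log2 fold change (LM2 minus Parental) was 0.09 over tested Rab genes and -0.0037 over all tested genes. The Rab median was 0.0496 without Parental replicate 1, 0.0578 with the effective-length offset and 0.0509 over members with little shared sequence. Changes of at least 1.5-fold were called in 12 of the 47 tested Rab genes, 8 higher and 4 lower. Among all 13247 tested genes 2216 (16.7%) changed that much, 1433 higher and 783 lower. Without the members on chromosomes 4, 8 and 10, an alternative added after seeing the data, 18 rose and 6 fell of 38, and 7 changed at least 1.5-fold. Members on chromosomes 6 and 12 stayed in this alternative. On single remaining autosomes and the X chromosome, 15.9% to 40.1% of all tested genes were called higher and 22.8% to 51.3% lower. The shares over all genes of the remaining chromosomes together were not computed, so the 18 rises and 6 falls have no matching background.

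Levels of different genes were compared in TPM (transcript abundance scaled for transcript length). The most abundant members were Rabs of general traffic. Averaged over the 6 libraries they were led by Rab7 of late endosomes and lysosomes at 199 TPM, Rab18 of the endoplasmic reticulum and lipid droplets at 182 TPM and Rab14 of recycling endosomes at 159 TPM. Rab1a, which acts between the endoplasmic reticulum and the Golgi, followed at 148 TPM, then the recycling Rab11b at 142 TPM, the early endosomal Rab5c at 137 TPM, Rab1b at 134 TPM and Rab11a at 114 TPM. These 8 genes held 51.2% of all Rab TPM. Their order depends on short annotated transcripts. In Parental, transcripts of 729 and 354 bases held 37.1% and 31.4% of Rab18 TPM, and 1 of 595 bases held 57.3% of Rab11a TPM. In CPM, Rab31 (210 in Parental, 230 in LM2) and Rab10 (192 and 197) were above Rab18 (105 and 108) and Rab11a (42.1 and 47.9). The TPM order differed by line. Rab8a was above Rab11a in Parental (116.5 against 103 TPM), and Rab2a was above Rab1b in LM2 (132 against 129 TPM). Neighbours in this order were often within their spread: in Parental, Rab1a was at 143 ± 2.22 and Rab1b at 139.5 ± 2.78 TPM (SD, n = 3). In LM2, Rab1a was at 152 ± 3.10, Rab5c at 150.3 ± 1.04 and Rab11b at 147 ± 3.15 TPM (SD, n = 3), whereas Rab1b was lower at 129 ± 1.35 TPM.

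By level, of 32 members at 10 TPM or more, 14 rose and 7 fell, and 2 changed at least 1.5-fold. Of 9 members between 1 and 10 TPM, 5 rose and 3 fell, and 7 changed at least 1.5-fold. Over all tested genes 8.55% of those at 10 TPM or more and 30.7% of those between 1 and 10 TPM changed at least 1.5-fold. The shares of all tested genes called higher or lower at these levels were not computed. The counts of rises and falls by level therefore have no matching background. The summed level of all Rab genes was 2298 ± 9.04 TPM in Parental and 2447 ± 12.8 TPM in LM2 (SD, n = 3 each), and the libraries of the lines did not overlap. An exact two-sided permutation test of the sum gave p = 0.1, the smallest p that 3 against 3 libraries allow. The division of this sum among sites of action moved little: Rabs of the endoplasmic reticulum and Golgi held 31.7% in Parental and 32.5% in LM2, and Rabs of recycling and the plasma membrane 32.6% and 31.2%.

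**Figure D1:**
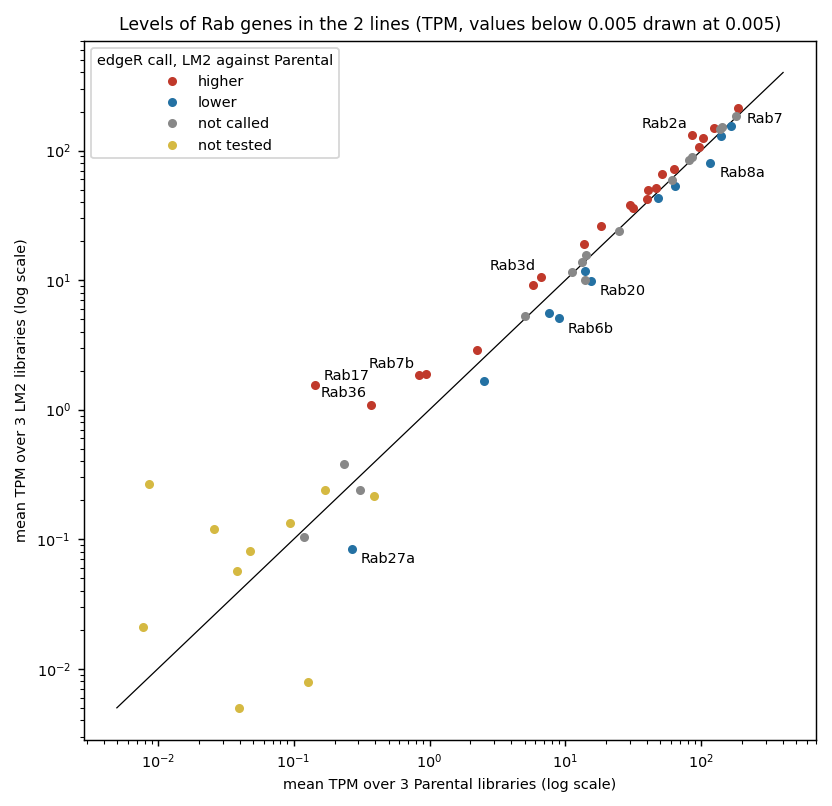
Each point is a Rab gene, with its mean TPM over 3 Parental libraries on the horizontal log axis and over 3 LM2 libraries on the vertical log axis, coloured by its edgeR call; the line marks equal levels and values below 0.005 TPM are drawn at 0.005. The abundant members lie near the line, and the called member furthest from it is Rab17.

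Rab3b, Rab3c, Rab9b, Rab15, Rab19, Rab25, Rab32, Rab33a, Rab38, Rab39, Rab40b and Rab44 were not tested. Their counts summed over 3 libraries were at most 16 in Parental and 23 in LM2, both for Rab3c. Rab25, an epithelial relative of Rab11, had 13 and 7 counts. Rab32 and Rab38, which serve melanosomes and other lysosome-related organelles, had 0 counts in all 6 libraries. A count of 0 allows up to 3 counts, or 0.0657 to 0.0888 CPM depending on the library, for counting error only.

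Among Rab genes of the endoplasmic reticulum and Golgi, 13 of 16 were tested. Of these, 5 rose, 2 fell and 6 did not pass (median log2 fold change 0.05, 53.8% called against 62.4% of all tested genes). Rab2a, which acts between the endoplasmic reticulum and Golgi, was at 115, 114 and 110.1 CPM in Parental replicates 1 to 3 and at 175, 167 and 169.7 CPM in LM2 replicates 1 to 3. All LM2 libraries lay above all Parental libraries. The rise was 1.51-fold, a log2 fold change of 0.60 ± 0.03 (SE; edgeR adjusted p = 3.28e-14). Rab2a lies on chromosome 4, and its value minus the median of that chromosome was 0.21.

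Rab6b, a Golgi Rab best known from neurons, was at 18.4, 17.7 and 18.8 CPM in Parental and at 9.75, 9.73 and 11.9 CPM in LM2. The groups did not overlap, with LM2 replicate 3 the nearest to Parental. The fall was 1.74-fold (log2 fold change -0.80 ± 0.07 SE, edgeR adjusted p = 4.11e-09). The widely expressed Rab6a, which moves vesicles at the Golgi, was at 103, 104 and 105 CPM in Parental and at 136, 131 and 127 CPM in LM2, a 1.26-fold rise. Of the 31-base words of Rab6a, 21.3% also occur in other genes, mostly Mrpl48, so reads could be split between them.

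The other members of that site with changes of at least 1.5-fold were at lower levels. Rab43, a Rab of the Golgi region, was at 15.3, 17.3 and 16.0 CPM in Parental and at 24.6, 25.9 and 26.0 CPM in LM2. Its log2 fold change was 0.66 ± 0.06 (SE), but 74.8% of its 31-base words are shared, mostly with Gm45140, so the call is uncertain. Rab30, another Golgi Rab, was at 2.04, 1.85 and 2.92 CPM in Parental and at 3.79, 4.24 and 3.93 CPM in LM2, a 1.75-fold rise without overlap. With an offset for the effective length of the transcripts the Rab30 log2 fold change was 0.36 and was not called (edgeR adjusted p = 0.157). Rab36 was at 0.483, 0.468 and 0.446 CPM in Parental and at 1.04, 1.10 and 1.10 CPM in LM2, a 2.31-fold rise (edgeR adjusted p = 0.00112) on chromosome 10, whose median was -0.33.

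Other members of that site changed little or did not pass. Rab1a, at 198, 201 and 202 CPM in Parental and 209, 199 and 202 CPM in LM2, and Rab18, at 104, 107 and 103 CPM and 112, 107 and 106 CPM, did not pass. Rab2b, Rab33b, Rab34 and Rab39b did not pass either, with log2 fold changes of 0.10, -0.07, 0.05 and -0.26. Rab1b, the second Rab1 gene, fell 1.05-fold (edgeR adjusted p = 0.0184), from 141, 139.8 and 145 CPM to 136, 135 and 134 CPM. That call was lost without Parental replicate 3 (edgeR adjusted p = 0.0969) and by DESeq2 (adjusted p = 0.0572), while with the effective-length offset its log2 fold change went from -0.07 to -0.15.

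All 9 Rab genes of early endosomes were tested and called, 6 higher and 3 lower (median log2 fold change 0.11), against 62.4% called of all tested genes. Rab17, an epithelial Rab of endocytic recycling and transcytosis, had the largest change of the family. It was at 0.154, 0.0826 and 0.0248 CPM in Parental and at 1.07, 1.42 and 1.76 CPM in LM2, which is 11 counts over the Parental libraries and 152 over the LM2 libraries. The log2 fold change was 3.94 ± 0.44 (SE; edgeR adjusted p = 5.99e-08), and it passed the low-count filter through the LM2 libraries alone, so its call had to be a difference. Of the 6 mammary epithelial markers, Epcam, Krt8 and Krt14 were also higher in LM2. Cdh1, with 23 counts in Parental and 10 in LM2, Krt18 and Krt5 were too low to be tested. A link of Rab17 to these markers was not tested.

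The 3 early endosomal members that fell lie on chromosomes 8 and 10. Rab20, a Rab of endosomes and phagosomes, was at 12.5, 12.6 and 12.3 CPM in Parental and at 7.87, 7.68 and 7.96 CPM in LM2, a 1.59-fold fall (log2 fold change -0.67 ± 0.07 SE, edgeR adjusted p = 4.22e-08). Rab21, which takes part in integrin traffic, was at 128, 129 and 133 CPM in Parental and at 88.7, 91.3 and 92.7 CPM in LM2, a log2 fold change of -0.51 ± 0.03 (SE), which was -0.30 with an offset for effective transcript length. Neither gene's groups overlapped. Minus the median of their chromosomes the values were -0.36 for Rab20 and -0.19 for Rab21.

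The 3 Rab5 genes, which control fusion of early endosomes, did not move alike. Rab5c was at 146, 143 and 147 CPM in Parental and at 172, 170.0 and 170.5 CPM in LM2, a log2 fold change of 0.24 ± 0.02 (SE; edgeR adjusted p = 2.93e-08). Rab5b was at 97.1, 94.8 and 96.8 CPM in Parental and at 84.7, 82.8 and 85.5 CPM in LM2, a fall of 1.14-fold on chromosome 10, whose own median was lower still (Rab5b minus the median was 0.14). Of the 31-base words of Rab5b, 11.85% are shared, mostly with Gm13991. Rab5a rose 1.08-fold, a call that was lost without Parental replicate 3 (edgeR adjusted p = 0.0821) and without LM2 replicate 3 (adjusted p = 0.118). Rab22a rose 1.06-fold and kept its call in 8 of 14 alternative settings. Rab31, a close relative of Rab22a, was at 213, 215 and 203 CPM in Parental and at 229.9, 230.9 and 230.4 CPM in LM2, a 1.10-fold rise without overlap. Rab24, linked to autophagy, rose 1.25-fold, but 54.4% of its 31-base words are shared, mostly with Prelid1.

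**Figure D2:**
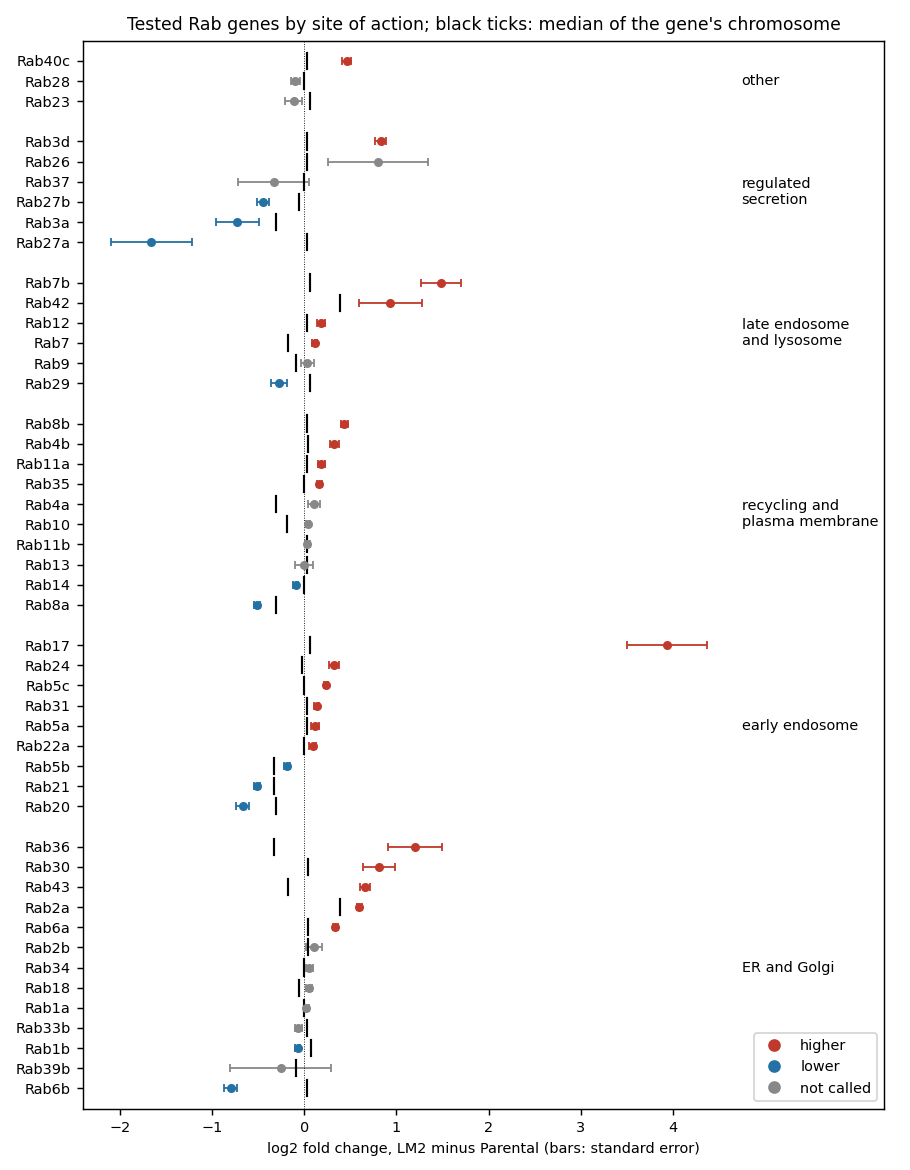
Points are the log2 fold changes (LM2 minus Parental) of the 47 tested Rab genes, grouped by site of action, with bars of 1 standard error and colours for the edgeR call; a black tick marks the median of the gene's chromosome. Rab17 lies furthest right at 3.94 and Rab27a furthest left at -1.66, and most other members lie within 1 unit of 0.

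Among Rab genes of recycling and the plasma membrane, 10 of 12 were tested. Of these, 4 rose, 2 fell and 4 did not pass (median log2 fold change 0.07, 60% called against 62.4% of all tested genes). None changed 1.5-fold. Rab8a, which carries cargo to the plasma membrane and the primary cilium, was at 96.7, 95.4 and 94.4 CPM in Parental and at 68.0, 65.3 and 67.2 CPM in LM2. The groups did not overlap, and the log2 fold change was -0.52 ± 0.03 (SE; edgeR adjusted p = 2.7e-12), or -0.21 after subtracting the median of chromosome 8. Its paralogue Rab8b was at 41.9, 44.7 and 41.5 CPM in Parental and at 57.2, 55.7 and 60.1 CPM in LM2, a 1.35-fold rise without overlap. Rab35, which acts in recycling from endosomes to the plasma membrane, rose from 90.6, 90.2 and 90.4 CPM to 101, 104 and 98.5 CPM (log2 fold change 0.16). Rab4b, a Rab of recycling from early endosomes, rose 1.25-fold, with 62.7% of its 31-base words shared, mostly with Gm21983. Rab14 fell 1.07-fold and Rab11a rose 1.14-fold, while Rab11b (log2 fold change 0.03), Rab10 (0.04), Rab13 (-0.0052) and Rab4a (0.10, or 0.41 after subtracting the median of chromosome 8) did not pass.

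Among Rab genes of late endosomes and lysosomes, 6 of 9 were tested. Of these, 4 rose, 1 fell and 1 did not pass (median log2 fold change 0.14, 83.3% called against 62.4% of all tested genes). Rab7, the most abundant member, was at 221, 217 and 219.7 CPM in Parental and at 239, 233 and 238 CPM in LM2, a 1.08-fold rise without overlap (edgeR adjusted p = 0.000371). Other genes hold 17.0% of its 31-base words too. Rab7b, which acts in transport from endosomes to the Golgi, was at 1.01, 1.05 and 0.719 CPM in Parental and at 2.34, 2.73 and 2.70 CPM in LM2. Its log2 fold change was 1.48 ± 0.22 (SE; edgeR adjusted p = 3.51e-06). Rab12 rose 1.13-fold, a call that was lost with the effective-length offset (edgeR adjusted p = 0.0597). Rab29, known as a partner of the kinase Lrrk2, fell 1.21-fold, and Rab9, which returns receptors from endosomes to the Golgi, did not pass (log2 fold change 0.03). Rab42, on chromosome 4, rose 1.91-fold from below 0.4 CPM, a log2 fold change of 0.93, or 0.55 after subtracting the chromosome median. Its call was lost without Parental replicate 2 (edgeR adjusted p = 0.0749) and without LM2 replicate 2 (adjusted p = 0.0871).

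Among Rab genes of regulated secretion, 6 of 9 were tested. Of these, 1 rose, 3 fell and 2 did not pass (median log2 fold change -0.39, 66.7% called against 62.4% of all tested genes). Rab3d, a Rab of secretory granules, was at 13.4, 12.2 and 12.7 CPM in Parental and at 23.8, 21.6 and 22.6 CPM in LM2, a 1.77-fold rise without overlap (log2 fold change 0.83 ± 0.06 SE, edgeR adjusted p = 5.7e-11). Rab3a, the Rab of synaptic vesicles, was at 1.91, 1.79 and 2.18 CPM in Parental and at 1.51, 0.919 and 1.13 CPM in LM2. It fell by 0.73 ± 0.23 (SE) on the log2 scale (edgeR adjusted p = 0.00845), or by 0.42 after subtracting the median of chromosome 8. Rab26 and Rab37, below 0.5 CPM in both lines, did not pass, with log2 fold changes of 0.80 ± 0.54 and -0.34 ± 0.39 (SE).

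Both Rab27 genes, which dock secretory vesicles and multivesicular endosomes, fell. Rab27b was at 14.7, 13.6 and 14.1 CPM in Parental and at 10.1, 10.7 and 10.2 CPM in LM2, a 1.37-fold fall without overlap. Rab27a was at 0.440, 0.413 and 0.595 CPM in Parental and at 0.116, 0.178 and 0.157 CPM in LM2, which is 59 against 16 counts (log2 fold change -1.66 ± 0.44 SE, edgeR adjusted p = 0.00233). It passed the low-count filter through the Parental libraries alone. Of the 4 members in the remaining group, Rab40c, part of a ubiquitin ligase, rose 1.37-fold from 21.1, 21.0 and 21.4 CPM to 28.5, 29.1 and 29.6 CPM, while Rab28 (log2 fold change -0.10) and Rab23 (-0.12), both linked to cilia, did not pass. Rab28 was called without Parental replicate 2 (edgeR adjusted p = 0.0498) or Parental replicate 3 (adjusted p = 0.046).

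**Figure D3:**
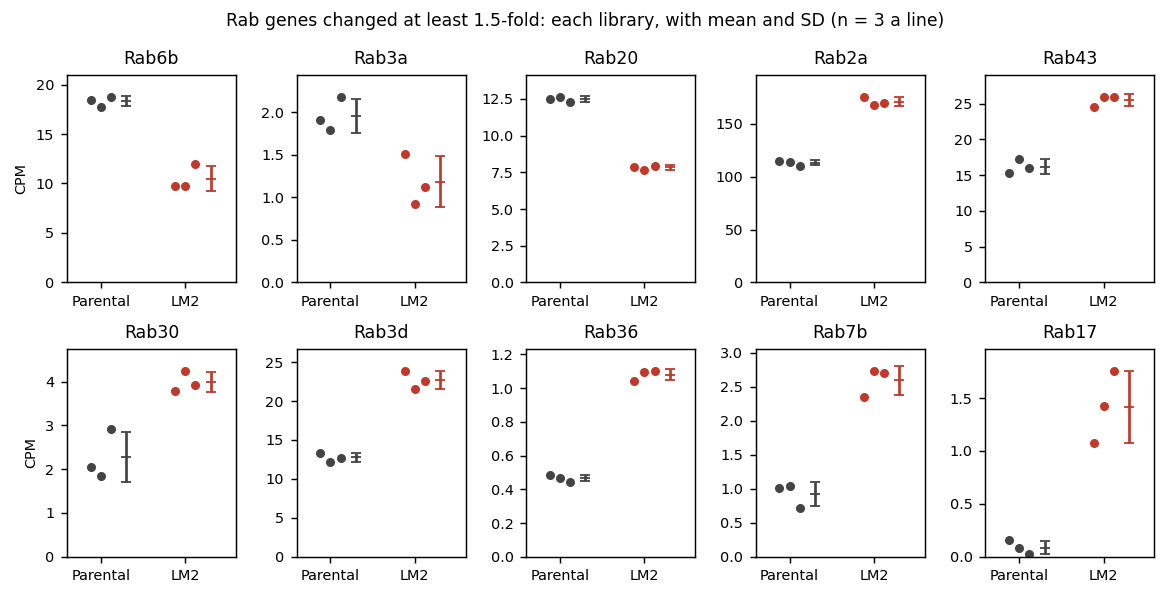
CPM of each library (points, Parental dark and LM2 red) for the 10 Rab genes called with a change of at least 1.5-fold and at least 1 CPM in the higher line, with the mean and SD of 3 libraries beside them; every vertical axis starts at 0. In each panel the 3 LM2 libraries lie wholly above or wholly below the 3 Parental libraries.

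Close paralogues were set side by side in 11 pairs, chosen after their values were seen. In 4 pairs the calls were opposite. Of the genes that fell in them, Rab8a and Rab3a lie on chromosome 8, Rab5b on chromosome 10 and Rab6b on chromosome 9. Minus the chromosome median the log2 fold changes were -0.21 for Rab8a, -0.42 for Rab3a, 0.14 for Rab5b and -0.83 for Rab6b. The share of opposite calls among other gene pairs was not computed. Rab8a held 89.4 ± 0.602% of the summed TPM of Rab8a and Rab8b in Parental and 80.9 ± 1.09% in LM2 (SD, n = 3). That share rests on short annotated transcripts of 542 and 324 bases, since the Rab8a transcript of 4550 bases held 22.6% and 23.2% of its TPM. In CPM, not scaled for length, Rab8a and Rab8b averaged 95.5 and 42.7 in Parental and 66.8 and 57.6 in LM2. The share of Rab6a with Rab6b went from 85.2 ± 1.28% to 92.9 ± 0.962%. The share of Rab5b with Rab5c went from 27.7 ± 0.0624% to 22.2 ± 0.419%, and that of Rab3a with Rab3d from 27.8 ± 3.49% to 13.8 ± 3.13%. In exact two-sided permutation tests 10 of the 11 pairs gave p = 0.1, the smallest possible, with an adjusted p of 0.11. These tests cannot decide whether shares differ, since no smaller p was possible and the pairs were chosen on the same values. Rab11a with Rab11b gave p = 0.2 in the same exact permutation test.

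The promoters of 2 of these pairs and of Rab17 are printed to let the paralogues be compared, as the 250 bases before the RefSeq start on build GRCm38.p6, 5′ to 3′ on the gene's strand. They are Rab8a at chr8:72160950-72161199 (plus strand), Rab8b at chr9:66919706-66919955 (minus), Rab6a at chr7:100607336-100607585 (plus), Rab6b at chr9:103111824-103112073 (plus) and Rab17 at chr1:90967668-90967917 (minus). Capitals mark matches on either strand to the GC box GGGCGG or the CCAAT box CCAAT, which did not overlap.
Rab8a: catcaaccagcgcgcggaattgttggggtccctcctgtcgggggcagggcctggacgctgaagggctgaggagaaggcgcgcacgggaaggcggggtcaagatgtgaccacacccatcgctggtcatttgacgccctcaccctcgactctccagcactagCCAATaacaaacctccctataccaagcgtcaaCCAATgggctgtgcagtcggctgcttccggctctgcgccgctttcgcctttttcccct
Rab8b: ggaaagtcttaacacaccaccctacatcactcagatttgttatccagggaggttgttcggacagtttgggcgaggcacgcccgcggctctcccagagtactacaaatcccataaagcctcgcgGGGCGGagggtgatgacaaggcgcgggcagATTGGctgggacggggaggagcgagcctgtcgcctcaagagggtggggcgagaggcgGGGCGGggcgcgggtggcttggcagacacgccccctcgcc
Rab6a: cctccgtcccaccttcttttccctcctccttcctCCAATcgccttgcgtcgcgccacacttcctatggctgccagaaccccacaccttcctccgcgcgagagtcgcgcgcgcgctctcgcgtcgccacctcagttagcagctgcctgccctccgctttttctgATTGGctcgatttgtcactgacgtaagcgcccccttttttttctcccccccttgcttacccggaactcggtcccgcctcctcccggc
Rab6b: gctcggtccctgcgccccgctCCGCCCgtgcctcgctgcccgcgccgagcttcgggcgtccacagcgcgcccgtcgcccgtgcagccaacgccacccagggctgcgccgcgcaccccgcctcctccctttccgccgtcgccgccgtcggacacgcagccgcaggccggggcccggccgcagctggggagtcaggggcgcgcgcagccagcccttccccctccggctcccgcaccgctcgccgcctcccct
Rab17: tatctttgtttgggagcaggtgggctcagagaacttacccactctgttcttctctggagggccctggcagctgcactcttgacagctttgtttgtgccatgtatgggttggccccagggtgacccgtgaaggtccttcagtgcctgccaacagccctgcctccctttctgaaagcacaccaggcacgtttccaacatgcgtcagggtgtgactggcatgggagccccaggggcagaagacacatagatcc

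The Rab6b promoter had 80.8% GC and 40 CpG dinucleotides with 1 GC box, against 62.8% GC, 24 CpG and 2 CCAAT boxes for Rab6a. Rab8a had 2 CCAAT boxes and no GC box, and Rab8b had 2 GC boxes and 1 CCAAT box. Rab17 had 3 CpG and no match to either motif in this window. RefSeq promoters matched 48 of the 59 members, with 60 promoters in all. Their median GC content was 60.2% against 52.4% over 32851 promoters of all genes, and 66.7% held GGGCGG against 32.7%. CCAAT was found in 40% against 33.8%, CACGTG in 8.33% against 6.02% and TGANTCA in 3.33% against 6.75%, searched on both strands. The core of the interferon response element was found in 1.67% against 2.98%. These shares describe letters in the window, not binding.

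Within genes, transcript usage could be described for 19 members of at least 10 TPM in both lines. The share of the most abundant transcript moved by less than 5 percentage points in 12 of them. In Rab21 the transcript of 4602 bases held 61.7 ± 2.75% of the gene's TPM in Parental and 50.5 ± 2.03% in LM2, and the one of 843 bases held 38.3% and 49.5% (SD, n = 3). In Rab23 the transcript of 444 bases held 70.5 ± 1.93% and 60.4 ± 2.37%. Rab23, singled out after its values were seen, was not called on counts (edgeR adjusted p = 0.287) but had a log2 fold change of -0.52 with the effective-length offset (adjusted p = 0.0166).

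**Figure D4:**
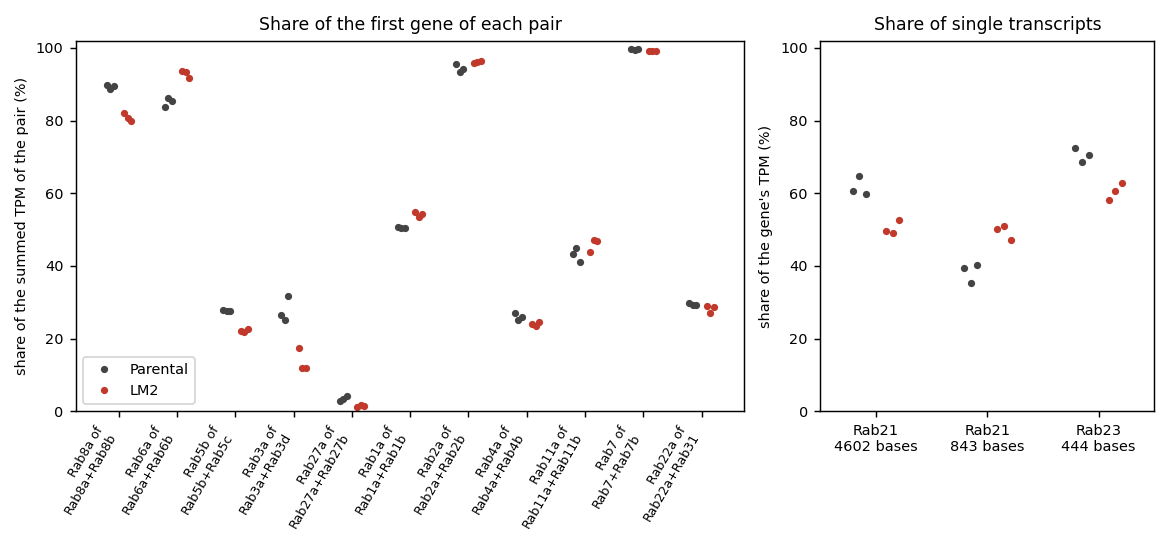
Left, the share in percent of the first gene in the summed TPM of each of 11 paralogue pairs; right, the share of single transcripts in the TPM of Rab21 and Rab23; points are libraries, Parental dark and LM2 red. The shares of Rab8a, Rab5b and Rab3a are lower in LM2 and that of Rab6a is higher, without overlap.

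The authors' deposited table listed 39 members. In 34 of them its log2 fold change was within 0.1 of the value computed here. In the authors' deposited table Rab17 was at 3.12, Rab30 at 0.69, Rab3d at 0.65, Rab3a at -0.61 and Rab23 at -0.52, the 5 that differed by more. All 28 listed members called here had the same sign in the authors' deposited table.

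Genes that act on or with Rab proteins were described from 4 lists of 185 genes, of which 167 were tested: 68 rose, 42 fell and 57 did not pass (median log2 fold change 0.07). The share called was 65.9%, near the 62.4% of all tested genes. In prenylation and membrane extraction, 1 of 8 tested genes rose, 3 fell and 4 did not pass (median -0.06, 50% called). Rabac1, which helps Rabs leave GDI, rose from 71.1 to 83.7 CPM. Chml, a Rab escort protein, fell from 18.9 to 12.2 CPM (log2 fold change -0.64 ± 0.06 SE, edgeR adjusted p = 3.36e-09), Rabif from 22.3 to 16.1 CPM, and Rabggtb, the catalytic subunit of the prenylating enzyme, from 34.5 to 29.7 CPM. Gdi2, the most abundant gene of the list that did not pass, was at 351.5 and 343 CPM.

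Of 55 exchange factor genes, all tested, 20 rose, 14 fell and 21 did not pass (median log2 fold change 0.04). Called were 61.8%, against 62.4% of all tested genes. Dennd2c, a DENN domain protein, was at 2.40, 2.12 and 2.11 CPM in Parental and at 8.51, 7.83 and 7.28 CPM in LM2 (log2 fold change 1.83 ± 0.12 SE, edgeR adjusted p = 1.76e-11). Dennd4b rose from 10.3 to 14.8 CPM and Rinl from 16.4 to 23.2 CPM. Mon1b, of the complex that activates Rab7, fell from 33.9 to 21.0 CPM, and the TRAPP subunits Trappc5 and Trappc11, of the complexes that activate Rab1 and its relatives, fell from 40.4 to 27.9 CPM and from 58.7 to 43.2 CPM. These 3 genes lie on chromosome 8. Rab3gap1 did not pass, at 178 and 171 CPM.

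Of 39 activating protein genes 35 were tested, of which 14 rose, 11 fell and 10 did not pass (median log2 fold change 0.08). Called were 71.4% of those tested, against 62.4% of all tested genes. Tbc1d8 was at 1.93, 2.18 and 1.59 CPM in Parental and at 6.54, 6.64 and 6.58 CPM in LM2 (log2 fold change 1.80 ± 0.14 SE, edgeR adjusted p = 1.55e-10). Tbc1d1, known from glucose transporter traffic, rose from 40.05 to 63.4 CPM and Sgsm3 from 33.0 to 46.6 CPM. Tbc1d8b fell from 12.4 to 7.57 CPM, Tbc1d7 from 8.61 to 5.58 CPM and Tbc1d25 from 6.19 to 4.05 CPM. Usp6nl did not pass, at 96.6 and 97.5 CPM.

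Of 83 effector genes 69 were tested, of which 33 rose, 14 fell and 22 did not pass (median log2 fold change 0.11). Of these, 68.1% were called, against 62.4% of all tested genes, of which 31.4% were higher and 31.1% lower. Mical2, of a family that oxidises actin, was at 60.3, 61.7 and 60.4 CPM in Parental and at 151, 152 and 158 CPM in LM2. Its log2 fold change was 1.34 ± 0.03 (SE, edgeR adjusted p = 9.98e-20). Whether Mical2 itself binds a Rab was not examined, so its place in this list is uncertain. Mical1 rose from 1.68 to 7.16 CPM on chromosome 10, with 12.7% of its 31-base words shared, mostly with Smpd2. Optn, an autophagy receptor that binds Rab8, rose from 5.12 to 9.95 CPM. Rufy2, on chromosome 10, fell from 21.9 to 12.2 CPM (log2 fold change -0.83, or -0.51 after subtracting the chromosome median). Bicd1, a dynein adaptor that binds Rab6, fell from 10.2 to 5.98 CPM. It lies on chromosome 6 (log2 fold change -0.76, or -0.59 after subtracting the chromosome median). Ocrl, a phosphoinositide phosphatase, fell from 20.9 to 15.6 CPM (log2 fold change -0.42, or -0.26 with the effective-length offset). Gorasp2 did not pass, at 153 and 155 CPM.

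Effectors of Rab27 were also examined, chosen after values were seen. Mlph fell from 46.9 to 36.5 CPM (edgeR adjusted p = 1.58e-06), and Sytl3 rose from 1.22 to 1.93 CPM (adjusted p = 0.0109), a call that was lost without LM2 replicate 3 (edgeR adjusted p = 0.0533). Unc13d rose from 10.2 to 13.2 CPM, but with the effective-length offset its log2 fold change went from 0.38 to 0.03 and was not called (edgeR adjusted p = 0.805). Sytl1, on chromosome 4, rose from 0.214 to 1.21 CPM, which is 25 counts over the Parental libraries and 130 over the LM2 libraries. It passed the low-count filter through the LM2 libraries alone. In TPM its libraries overlapped, with Parental replicate 2 at 0.935 and LM2 replicate 2 at 0.879. Exph5, Myrip, Sytl2, Sytl4 and Sytl5 did not have enough reads to be tested.

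**Figure D5:**
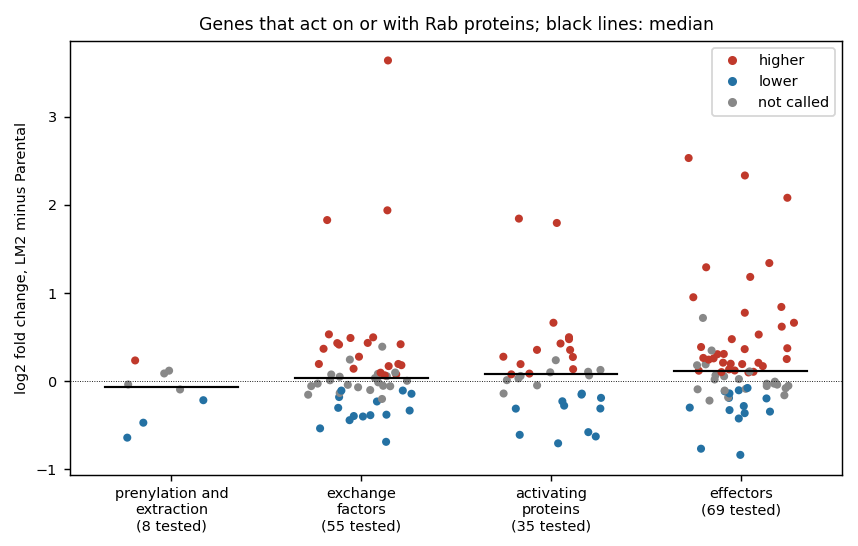
Log2 fold changes (LM2 minus Parental) of the tested genes of 4 lists of Rab regulators and effectors, 1 point a gene, coloured by the edgeR call, with the median of each list as a black line. The medians lie between -0.06 and 0.11, and the highest exchange factor is Als2cl, which rose from 0.333 to 4.21 CPM.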

How the data were processed

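RNA of 3 Parental and 3 LM2 libraries was grouped by the labels' titles. The authors deposited estimated counts, TPM and effective lengths per transcript, made with kallisto 0.46.2 on GRCm39 per the submitters' processing notes, and a table of log2 fold changes per gene (edgeR 3.32.1 in those notes). Which transcript set was used, and whether strand was, is not stated in these sources, and overlapping genes can share reads. Transcripts were joined to genes with GENCODE M21 (116408 matched; 1078, with 0.426% to 0.448% of counts, were left out). For each gene the estimated counts of its transcripts were added and rounded.

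Genes passing filterByExpr (13247) were fitted with edgeR 4.0.16 in R 4.3.3 (TMM, robust quasi-likelihood test, LM2 minus Parental, Benjamini-Hochberg over all tested genes, called below 0.05), and the fit was tested on simulated data. SE is the log2 fold change divided by the root of F. Depth was 33922699 to 45849019 counts per library. Alternatives were DESeq2 1.42.0, limma 3.58.1, other scalings, filters, an effective-length offset, a replicate block and leaving out each library.

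The members and lists were chosen with earlier results of these data known. Named were members called at 1.5-fold or more with at least 1 CPM, the 8 of highest TPM, and the largest call and highest TPM of each site; from each partner list (prenylation, exchange factors, activating proteins, effectors) the 3 largest rises and falls of at least 5 CPM and the most abundant gene not called. Other members are named as examples. Marker lists were mammary epithelial and leukocyte, endothelial (summed 3.40 to 4.19 CPM in Parental, 4.12 to 4.60 in LM2), melanocyte (3.87 to 4.64 and 2.72 to 3.01) and adipocyte (0.303 to 0.496 and 0.183 to 0.237). Protein sequences were not used here.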

Additional observations from a re-analysis of the deposited data

How the results depend on the processing

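No called Rab gene turned direction in any of 14 alternative settings, and 25 of the 32 called kept their call in all of them; the others were Rab1b, Rab5a, Rab12, Rab22a, Rab30, Rab42 and Rab27a, which was not tested under a filter of 1 CPM and was called in the rest. The number of Rab genes higher ranged from 15 to 21, lower from 6 to 12 and changed at least 1.5-fold from 7 to 12; without chromosomes 4, 8 and 10, added after seeing the data, 6 were lower and 7 changed at least 1.5-fold, since fewer genes were counted. Regulators and effectors ranged from 59 to 72 higher and 35 to 48 lower. The median log2 fold change of tested Rab genes was 0.0578 with the effective-length offset and 0.0509 over the 38 members with little shared sequence, and ranged from 0.0496 to 0.103 when 1 library was left out (lowest without Parental replicate 1, then 0.0615 without LM2 replicate 1); the cause was not tested. With the effective-length offset Rab5a, Rab12, Rab22a and Rab30 lost their calls. Replicate numbers did not pair the libraries: deviations of same-numbered libraries correlated at -0.078, 0.0452 and 0.0147. With the replicate number as a block 21 Rab genes were higher and 11 lower, 12 changed at least 1.5-fold, the median log2 fold change was 0.09, and 69 regulators and effectors were higher and 41 lower; all 32 Rab calls remained. Depth limits the members below 1 TPM most, where 6 of 18 were tested.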
